A study of Saccharomyces cerevisiae with 22 samples.

Results

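Expression in the evolved yeast lineage H9 was compared between cells that carried a mistranslating tRNA and cells that carried the empty vector. The 6 arrays of H9 were taken by their labels, 3 with the tRNA and 3 with the empty vector, out of 22 one-colour Agilent arrays in the series. All strains were self-diploids of the BY4742 background (MATα; his3Δ1, leu2Δ0, lys2Δ0, ura3Δ0). The tRNA came from Candida albicans and was carried on pUKC715, a single-copy LEU2 plasmid, and the control plasmid was the single-copy LEU2 vector pRS315. H9 had evolved in the presence of the tRNA plasmid, which was later exchanged for the empty vector in its control cells. H9 came from 1 colony of 1 evolved population, so its replicates do not sample separate evolutions. The other arrays came from the evolved lineages D11 (3 with the tRNA, 3 with the empty vector) and B3 (3 and 2) and from the ancestor (3 and 2), with the same plasmids. Cells grew exponentially in synthetic medium without leucine. The labels number the samples of a group but do not say that they came from separate cultures, and p-values measure the spread between these samples.

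The tRNA of C. albicans reads the codon CUG, which means leucine in baker's yeast, and is charged with serine, so that a fraction of leucine positions in many proteins receive serine. Proteins with such errors can misfold, and chaperones, the proteasome and the general stress response are the classical systems that deal with damaged proteins. Yeast growth is also tied to ribosome production: genes for ribosome assembly are switched on together in fast growth, and genes for storage carbohydrates, respiration and stress defence are switched on together in slow growth. The comparison within H9 asks which genes still respond to the tRNA in a lineage that had adapted to it.

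Values are given as log2 of the signal relative to the median of the array, here called the log2 level. A difference of 1 is thus 2-fold, and all differences are H9 with the tRNA minus H9 with the empty vector unless another strain is named. A gene was called at an adjusted p under 0.05 (limma across 5912 genes, Benjamini-Hochberg) with at least a 2-fold change. Levels of different genes depend on their probes and are not compared with each other. In bulk RNA, fewer cells that express a gene and less RNA per cell cannot be told apart.

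The third empty vector array of H9 stood apart. Its correlation with the other empty vector arrays was 0.974 and 0.965 across genes (Pearson), against 0.992 between those, and 0.991 to 0.995 among the tRNA arrays. Its median signal was 810, against 1914 and 2282 on the other empty vector arrays, and 1013 to 1287 on the tRNA arrays. It lay on the slide of the third replicates, which was scanned on another day and held no empty vector array of the ancestor or B3. The counts of genes called within H9, the medians of gene lists and the values that moved most are therefore given with and without this array. No spot was saturated, and the number of arrays limits the precision.

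Most strain markers matched the labels. HIS3, LYS2 and URA3, which are deleted in the background, had log2 levels between -8.63 and -5.29 on the 6 H9 arrays and did not pass the filter on dim probes. LEU2, which both plasmids carry, had 5.34, 5.28 and 5.30 with the tRNA and 5.51, 5.62 and 6.26 with the empty vector, a difference of -0.49 (adjusted p 0.057, limma). The MATα pheromone gene MF(ALPHA)1 lay between 4.83 and 5.27 on all 6 arrays. Of the genes of MATa cells, AGA2 was not well above background on any H9 array and MFA1 and STE2 lay between -4.15 and -3.54. MFA2 lay between -6.26 and -5.35 and BAR1 between -4.28 and -3.39. STE6 was brighter, between -1.86 and -1.34.

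H9 carried its chromosome changes with both plasmids. The right end of chromosome IV (255 genes) averaged 0.49 ± 0.02 above the ancestor with the empty vector in H9 with the tRNA and 0.48 ± 0.07 in H9 with the empty vector (log2, SD, n = 3 arrays each). The shorter part of the right end of chromosome V (22 genes) averaged -0.88 ± 0.04 with the tRNA and -0.96 ± 0.08 with the empty vector. The rest of that end (29 genes) averaged -0.91 ± 0.02 with the tRNA and -0.92 ± 0.06 with the empty vector. None of the 6 segments and chromosomes examined gave a two-sided exact permutation p below 0.2 between the plasmids, where 3 against 3 arrays cannot go below 0.1, and the adjusted p over the 6 was 0.9 for each. Differences ranged from -0.03 on chromosome IX to 0.07 on the shorter part of V.

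With all 6 arrays, 114 of 5912 genes were called (1.93%), of which 92 were higher (1.56%) and 22 lower (0.372%) with the tRNA. Without the third empty vector array 76 genes were called (1.29%), 60 higher (1.01%) and 16 lower (0.271%). Of these, 19 higher and 11 lower genes were called both ways. No gene called with all arrays changed its sign, but leaving out 1 array cannot change it where the groups do not overlap. The median difference of all genes was 0.0047 with all arrays and 0.05 without the third. Under quantile normalization of the arrays 73 genes were called higher and 33 lower. All 92 and all 22 called genes had tRNA arrays that did not overlap the empty vector arrays, against 16.6% and 16% of all genes in the same directions. These genes were chosen by the size of their difference, so nothing is read from that count. The called higher genes had median differences of 0.69, 0.90 and 1.91 on slides 1, 2 and 3, and the called lower genes had -0.97, -1.01 and -1.55. Slide 3, with the third empty vector array, thus gave the largest differences in both directions.

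**Figure D1:**
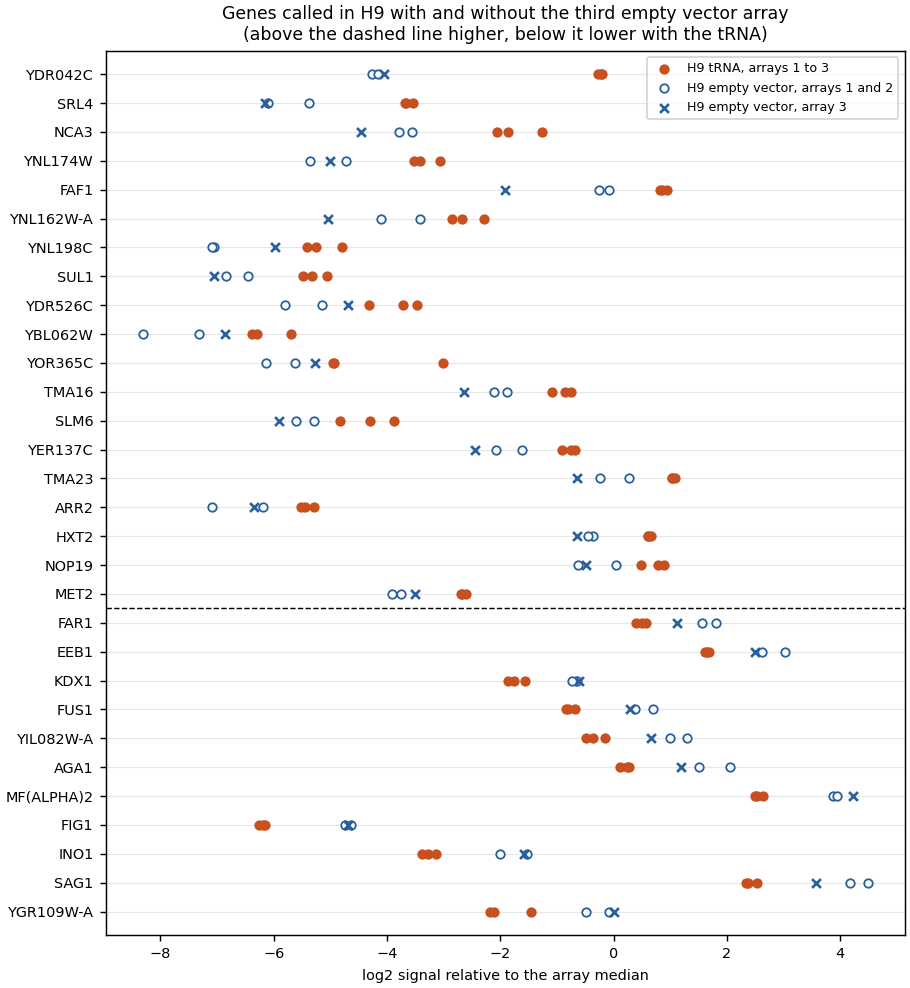
Log2 levels (x axis, relative to the array median) of the 30 genes called with and without the third empty vector array, 1 row per gene, ordered by their difference. Filled points are the 3 H9 tRNA arrays, open points the first and second empty vector arrays, and crosses the third; the 19 genes above the dashed line were higher and the 11 below it lower with the tRNA, and the groups do not overlap in any row.

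YDR042C, an uncharacterised gene on chromosome IV, showed by far the strongest response. Its log2 level was -0.20, -0.27 and -0.22 with the tRNA and -4.27, -4.15 and -4.06 with the empty vector. The tRNA arrays were thus 15.2-fold higher (difference 3.93, SE 0.25, adjusted p 1.4e-07, limma), and 15.8-fold higher without the third empty vector array. The same gene was higher by 4.67 in the ancestor, 4.02 in D11 and 4.34 in B3, strains that share no array with H9. Over all strains the 12 tRNA arrays lay between -0.61 and 1.15, and the 10 empty vector arrays between -4.37 and -3.39.

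SRL4, named for a genetic interaction with the checkpoint kinase gene RAD53, had -3.54, -3.67 and -3.68 with the tRNA and -6.11, -5.38 and -6.15 with the empty vector (difference 2.25, SE 0.28). Only 1 of its empty vector arrays was well above background. NCA3, a member of the SUN family of wall-associated proteins, had -2.06, -1.87 and -1.27 with the tRNA and -3.79, -3.57 and -4.45 with the empty vector (difference 2.21, SE 0.33). Without the third empty vector array the differences were 2.11 and 1.95. NCA3 was also higher by 2.53 in the ancestor, 1.66 in D11 and 1.59 in B3. SRL4 was higher by 2.69 in the ancestor and 1.30 in D11, and its difference of 1.15 in B3 did not pass (adjusted p 0.13, limma).

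Among the remaining genes called higher both ways, SUL1, the high-affinity sulfate permease, had -5.48, -5.06 and -5.33 with the tRNA and was not well above background on any empty vector array. It was 2.83-fold higher with the tRNA (adjusted p 0.0026, limma), and 2.58-fold without the third array. For a gene not well above background, the brighter group's mean was set against the lowest signal well above background on each array. Where the gene's own signal was higher, that signal was used. This was so for SUL1, so its fold is uncertain and not a lower bound. MET2, which makes O-acetylhomoserine for methionine synthesis, had -2.67, -2.60 and -2.70 with the tRNA and -3.90, -3.76 and -3.51 with the empty vector (2.09-fold, and 2.25-fold without the third array). HXT2, a high-affinity glucose transporter, had 0.61, 0.60 and 0.66 with the tRNA and -0.36, -0.45 and -0.65 with the empty vector (2.16-fold, adjusted p 0.00026, limma, and 2.04-fold without the third array). For all 3 genes the groups did not overlap, as for every called gene, so nothing is read from that.

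FAF1, a factor of pre-rRNA processing, had 0.82, 0.94 and 0.86 with the tRNA and -0.09, -0.26 and -1.91 with the empty vector. Its difference was 1.62 with all arrays and 1.04 without the third. TMA16, TMA23 and NOP19, which encode proteins that accompany ribosome precursors, were higher by 1.31, 1.25 and 1.08, and by 1.10, 1.03 and 1.02 without the third array. Of the 19 genes, 4 (YNL174W, YNL198C, YDR526C and YBL062W) are not in the R64 gene table used for names, and 2 of these, YNL198C and YBL062W, were not well above background on any empty vector array. By the same measure they were 2.95-fold and 2.60-fold higher, folds of uncertain size, YBL062W with 1 of its 3 tRNA arrays well above background. YNL162W-A, YOR365C, SLM6, YER137C and ARR2, a gene of the arsenate resistance cluster, completed the 19, with differences of 1.59, 1.38, 1.27, 1.26 and 1.12.

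Genes of mating made up most of the genes that were lower both ways. Haploid MATα cells produce α-factor and an agglutinin, and pheromone induces a further group of genes for cell fusion and cell cycle arrest. Of 28 genes of a mating and pheromone list, 6 were called lower and none higher, with and without the third empty vector array, against 0.372% and 0.271% of all genes. At the adjusted p alone 10 of the 28 were lower in both fits, against 4.94% and 3.1% of all genes. The median difference of the list was -0.39 with all arrays and -0.44 without the third, and its median within slides 1, 2 and 3 was -0.48, -0.46 and -0.41. For all genes these slide medians were 0.05, 0.06 and -0.12.

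SAG1, the α-agglutinin, had 2.34, 2.53 and 2.37 with the tRNA and 4.17, 4.50 and 3.57 with the empty vector (3.18-fold lower, difference -1.67, SE 0.23, adjusted p 0.00093, limma, and -1.92 without the third array). MF(ALPHA)2, the minor α-factor gene, had 2.64, 2.53 and 2.50 with the tRNA and 3.88, 3.94 and 4.22 with the empty vector (2.75-fold lower, and 2.56-fold without the third array). The tRNA arrays lay closely together for both genes and, as for every gene called lower, below every empty vector array. AGA1, the anchor of the agglutinin of MATa cells and also induced by pheromone, differed by -1.37 with all arrays and -1.57 without the third. FUS1, which acts in cell fusion, differed by -1.23 and -1.31, and FAR1, which arrests the cell cycle in response to pheromone, by -1.01 and -1.20. FIG1, a membrane protein of mating, had -4.74, -4.64 and -4.68 with the empty vector and was not well above background on any tRNA array. By its own dim signal there it was 2.86-fold lower (adjusted p 0.010, limma), a fold of uncertain size. STE3, the receptor for the a-pheromone, was lower by 0.94 (adjusted p 0.00043, limma), below the 2-fold minimum. The mating type genes MATALPHA1 and MATALPHA2 differed by -0.24 and 0.04, with adjusted p of 0.096 and 0.92 (limma).

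YGR109W-A and YIL082W-A, reading frames of copies of the retrotransposon Ty3, whose transcription is known to respond to pheromone, were lower by 1.73 and 1.32. Copies of a retrotransposon can share hybridisation, so these are not 2 independent measurements. YGR109W-A had -2.11, -1.46 and -2.19 with the tRNA and -0.08, -0.49 and 0.0042 with the empty vector. Of the 6 called mating genes, 5 also passed the adjusted p in D11, SAG1 with -1.67, AGA1 with -1.62, FUS1 with -1.39, MF(ALPHA)2 with -1.28 and FAR1 with -0.85, while FIG1 differed by -0.34 (adjusted p 0.59, limma). In the ancestor SAG1, AGA1, MF(ALPHA)2, FAR1 and FIG1 passed, with -1.08, -1.07, -1.49, -0.96 and -1.90, and FUS1 differed by -0.55 (adjusted p 0.054). In B3 none of the 6 passed, and they ranged from -0.34 to 0.11. YGR109W-A differed by -1.94 in D11, -0.31 in the ancestor (adjusted p 0.53) and 0.19 in B3. None of SAG1, MF(ALPHA)2, AGA1, FUS1 and FAR1 passed the test of a difference between the responses of H9 and of the ancestor, D11 or B3. The list median was -0.53 in D11, -0.31 in the ancestor and -0.11 in B3.

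INO1, the inositol-3-phosphate synthase that begins inositol synthesis, had -3.28, -3.38 and -3.14 with the tRNA and -2.00, -1.53 and -1.59 with the empty vector (2.94-fold lower, and 2.82-fold without the third array). KDX1, a kinase related to the wall integrity kinase Slt2, was lower by 1.07, and also by 1.03 in the ancestor, 0.58 in D11 and 0.99 in B3. EEB1, which makes fatty acid ethyl esters, had 1.68, 1.62 and 1.66 with the tRNA and 2.63, 3.02 and 2.50 with the empty vector. With these, the mating genes and the Ty3 reading frames, all 11 genes lower both ways are named. Of 18 cell wall integrity genes 1, KDX1, was called lower, against 0.372% of all genes. At the adjusted p 6 were lower with all arrays, against 4.94%, and 5 without the third, against 3.1%.

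**Figure D2:**
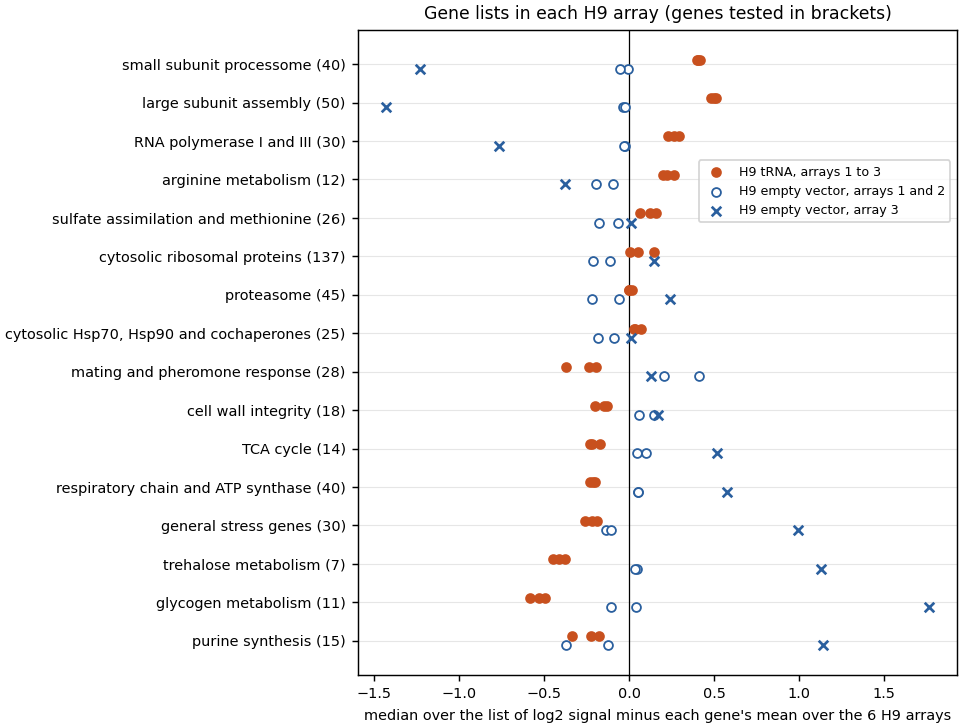
Medians over 16 gene lists (y axis, with the number of genes tested) of the log2 signal minus the mean of each gene over the 6 H9 arrays (x axis), for each array. Filled points are the H9 tRNA arrays, open points the first and second empty vector arrays, and crosses the third; for ribosome assembly the cross lies at -1.43 and -1.23, far below the open points, and for glycogen metabolism at 1.77, far above them.

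Of the gene lists, those of ribosome assembly held the most called genes, and the size of its difference depended on the third empty vector array. The small subunit processome and the large subunit assembly factors are nucleolar proteins that process and fold ribosomal RNA. Of 50 large subunit assembly genes, 14 were called higher and none lower with all arrays, against 1.56% of all genes. Of 40 genes of the small subunit processome, 7 were called higher and none lower. Without the third array none of either list was called, while 9 of 50 and 2 of 40 were higher at the adjusted p alone, against 4.85% of all genes, a share close to 2 of 40. Without that array 48 of 50 and 39 of 40 had a positive difference. With all arrays, 50 of 50 and 40 of 40 did.

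The median difference of the large subunit assembly genes was 0.98 with all arrays and 0.52 without the third. That of the processome was 0.83 and 0.43. The tRNA arrays had list medians of 0.50, 0.48 and 0.51 for large subunit assembly, relative to each gene's mean over the 6 arrays. The empty vector arrays had -0.03, -0.03 and -1.43. The first and second empty vector arrays thus lay close together, below the tRNA arrays, and the third lay much further below. Within slides 1, 2 and 3 the list medians of the difference were 0.49, 0.55 and 1.91, and for the processome 0.40, 0.47 and 1.65.

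RRS1, a factor that brings 5S ribosomal RNA to the large subunit precursor, had 1.69, 1.80 and 1.83 with the tRNA and 0.99, 1.01 and -0.76 with the empty vector. Its difference was 1.36 (adjusted p 0.026, limma) and 0.77 without the third array (adjusted p 0.046). NOP7, of the pre-60S particle, had 2.53, 2.75 and 2.68 with the tRNA and 1.83, 1.87 and 0.50 with the empty vector. NOP15, another pre-60S factor, had 2.57, 2.82 and 2.50 with the tRNA and 1.93, 1.36 and 0.70 with the empty vector. In all 3 genes the tRNA arrays lay above each empty vector array, as in every gene called higher, so nothing is read from this. The other large subunit factors called were RPF1, EBP2, RLP7, SPB1, SSF1, RPF2, RLP24, NOP16, NOP4, DBP10 and MAK5, between 1.01 and 1.28.

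In the processome, MRD1 had 1.87, 1.81 and 2.07 with the tRNA and 1.14, 1.13 and -0.87 with the empty vector, and UTP23 had 0.65, 0.69 and 0.83 with the tRNA and -0.08, -0.36 and -1.81 with the empty vector. Their differences were 1.45 and 1.48 with all arrays and 0.78 and 0.94 without the third. KRR1, UTP11, IMP4, UTP14 and ECM16 were called between 1.04 and 1.07. LTV1, an export factor of the small subunit, was higher by 1.49 (0.77 without the third array, adjusted p 0.12). NOP1, the fibrillarin that methylates ribosomal RNA, differed by 0.41 and UTP10 by 0.74, neither past the adjusted p.

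RNA polymerases I and III make the ribosomal RNAs and the transfer RNAs. Of 30 of their genes, 1 was called higher, the polymerase I subunit gene RPA34, with a difference of 1.04 (0.75 without the third array, adjusted p 0.063), against 1.56% of all genes. At the adjusted p alone 9 were higher with all arrays, against 5.58% of all genes, and none without the third, and the list median was 0.55 and 0.29. The 137 cytosolic ribosomal protein genes had no called member in either direction with or without the third array, and none passed the adjusted p. Their differences ranged from -0.17 to 0.59 with a median of 0.13, and 0.23 without the third array. RPL25 and RPS0A, subunit proteins of the large and the small ribosomal subunit, differed by 0.02 and 0.10.

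**Figure D3:**
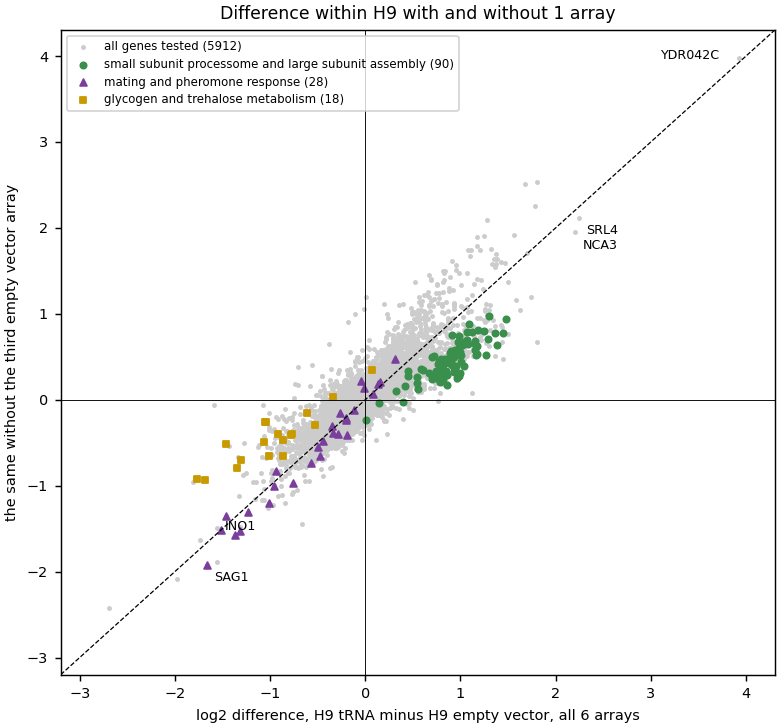
Log2 difference between H9 with the tRNA and H9 with the empty vector without the third empty vector array (y axis) against the difference with all 6 arrays (x axis) for 5912 genes; the dashed line marks equal values. Ribosome assembly genes lie to the right of 0 and below the line, glycogen and trehalose genes, but for 1, to the left of 0 and above the line, and mating genes along the line.

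Storage carbohydrate genes had few called members, and their medians were negative and moved most with the third array. Of 11 glycogen genes, 2 were called lower with all arrays, against 0.372% of all genes, and none without the third. GSY2, the main glycogen synthase, had 1.11, 1.05 and 1.20 with the tRNA and 1.83, 2.00 and 3.56 with the empty vector. Its difference was -1.35 with all arrays and -0.80 without the third (adjusted p 0.023 and 0.048, limma). UGP1, which makes UDP-glucose, had 3.17, 3.24 and 3.06 with the tRNA and 3.75, 3.86 and 4.89 with the empty vector (-1.01, and -0.65 without the third). Both remained lower at the adjusted p without the third array but missed the 2-fold minimum. The glycogen list median was -1.05 with all arrays and -0.49 without the third, and 10 of 11 members had negative differences in both. Within slides it was -0.40, -0.55 and -2.36.

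Of 7 trehalose genes none was called, 2 were lower at the adjusted p with all arrays, against 4.94% of all genes, and none without the third, and the median was -0.86 and -0.40. TSL1, a trehalose synthase subunit, had -1.69, -1.37 and -1.69 with the tRNA and -0.60, -0.71 and 1.61 with the empty vector (adjusted p 0.17, limma). HXK1, a hexokinase of slow growth, had 1.38, 1.53 and 1.59 with the tRNA and 2.55, 2.36 and 5.01 with the empty vector. Its difference of -1.81 had an adjusted p of 0.054 and was not called.

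Of 30 general stress genes, 3 were called lower with all arrays, against 0.372% of all genes, and none without the third. They were GPD1, the glycerol-3-phosphate dehydrogenase of osmotic stress, at -1.18, GAD1, a glutamate decarboxylase, at -1.13, and PHM7 at -1.09. The values without the third array were -0.96, -0.54 and -0.66. GPD1 had 2.69, 2.85 and 2.72 with the tRNA and 3.72, 3.71 and 4.38 with the empty vector, and kept an adjusted p of 0.037 without the third. Other markers of stress split the empty vector arrays: DDR2 had -0.73, -0.54 and -1.15 with the tRNA and -1.41, -2.31 and 1.35 with the empty vector. The tRNA arrays lay between the empty vector arrays, and the difference was -0.02 with all arrays and 1.05 without the third, neither past the adjusted p. HSP12, a small heat shock protein, had 0.86, 1.13 and 0.95 with the tRNA and 0.41, -0.35 and 2.15 with the empty vector.

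Of 40 genes of the respiratory chain and ATP synthase, 14 were lower at the adjusted p with all arrays and 7 without the third, against 4.94% and 3.1% of all genes, and none was higher. SDH2, a subunit of succinate dehydrogenase, was the member called, at -1.10 (-0.85 without the third, adjusted p 0.13). The list median was -0.39 and -0.26, and QCR2, of complex III, differed by -0.59. Of 14 citric acid cycle genes 9 were lower at the adjusted p with all arrays and 3 without the third, and none was called. CIT1, the mitochondrial citrate synthase, had 2.57, 2.59 and 2.59 with the tRNA and 3.20, 3.05 and 4.21 with the empty vector (-0.91 and -0.54, adjusted p 0.023 and 0.049). KGD1, of the oxoglutarate dehydrogenase, differed by -0.56 and -0.51 and passed the adjusted p both ways.

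Of the other genes called lower with all arrays, ADH4, an alcohol dehydrogenase, differed by -1.15, and by -0.96 without the third array. A few genes had larger differences without a call. ZPS1, a zinc-regulated wall protein, had 0.36, 0.44 and 0.04 with the tRNA and 2.66, 2.74 and 3.50 with the empty vector, a difference of -2.69 with SE 0.90 and an adjusted p of 0.065 (limma). FRE7, a metalloreductase, had -1.77, -1.83 and -1.86 with the tRNA and 0.12, 0.42 and -0.05 with the empty vector, with an adjusted p of 0.125. The spread that enters these tests is shared with the other strains, and with the 6 H9 arrays alone the adjusted p was 0.021 for ZPS1 and 0.0074 for FRE7. Both were chosen after their values had been seen. Most called genes went the other way: with the H9 arrays alone, 6 of the 92 higher and 5 of the 22 lower genes kept their call.

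The systems that handle misfolded proteins had almost no called member within H9. Of 45 proteasome genes, 44 ubiquitin genes, 25 genes of cytosolic Hsp70, Hsp90 and their partners, 20 of folding in the endoplasmic reticulum and 9 mitochondrial chaperones, none was called in either direction with or without the third array. With all arrays 2 of these genes were higher at the adjusted p and 4 lower, against 5.58% and 4.94% of all genes. Without the third array 3 Hsp70 and Hsp90 list genes, 1 proteasome and 1 endoplasmic reticulum gene were higher, against 4.85%. Then 1 ubiquitin gene was lower, against 3.1%. With all arrays and without the third, the Hsp70 and Hsp90 median was 0.05 and 0.20. That of the endoplasmic reticulum list was -0.11 and -0.02, of mitochondrial chaperones -0.08 and 0.11, and of ubiquitin genes -0.09 and -0.01. The proteasome list ranged from -0.25 to 0.36 with a median of 0.03 (0.13 without the third). RPN4, the transcription factor of proteasome genes, had 1.38, 1.32 and 1.07 with the tRNA and 0.88, 0.74 and 1.09 with the empty vector, so that the groups overlapped (0.35, adjusted p 0.092, and 0.45 without the third, adjusted p 0.059). UBP3 and UBP5, ubiquitin proteases, differed by 0.25 and -0.04. These values do not show that the genes were alike in both groups.

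For HSP26 and SSA4 the first and second empty vector arrays lay below the tRNA arrays and the third above them. HSP26, a small heat shock protein, had 1.03, 0.95 and 0.94 with the tRNA and 0.30, 0.20 and 1.54 with the empty vector. Its difference was 0.29 with all arrays and 0.72 without the third (adjusted p 0.48 and 0.010, limma). SSA4, an inducible Hsp70, had 0.45, 0.55 and 0.41 with the tRNA and 0.08, -0.05 and 1.47 with the empty vector (-0.03, and 0.45 without the third). HSP104, the disaggregase, differed by -0.43 and 0.12, and HSP82, an Hsp90, by 0.02 and 0.34. ERO1, which oxidises proteins in the endoplasmic reticulum, was higher by 0.32 with all arrays and 0.38 without the third and passed the adjusted p both ways. Of 8 genes listed as small heat shock proteins and disaggregase, 1 was called, HSP30, higher, against 1.56% of all genes. HSP30, a plasma membrane protein induced by heat, had 2.75, 2.64 and 2.74 with the tRNA and 1.69, 1.96 and 1.39 with the empty vector (1.03, and 0.89 without the third, adjusted p 0.028 and 0.077).

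All 12 arginine genes had positive differences with and without the third array, 8 of them at the adjusted p with all arrays and 4 without, against 5.58% and 4.85% of all genes, and none was called at 2-fold. The list median was 0.45 and 0.37, and within slides 0.44, 0.31 and 0.55. CAR1, the arginase, had 3.32, 3.64 and 3.18 with the tRNA and 2.44, 2.47 and 2.53 with the empty vector (0.90, and 0.93 without the third). ARG1, the argininosuccinate synthetase, was higher by 0.49. In leucine synthesis, LEU1 differed by 0.54 and BAT1, a branched-chain transaminase, by 0.64, and by 0.63 and 0.66 without the third array, where BAT1 had an adjusted p of 0.064. CDC60 and SES1, the synthetases that charge leucine and serine tRNAs, differed by 0.05 and 0.02, and none of 21 cytosolic synthetase genes passed the adjusted p with or without the third array.

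Of 26 genes of sulfate assimilation and methionine, SUL1 and MET2 were called higher with all arrays, against 1.56% of all genes, and MET32, a regulator of that pathway, with them without the third. MET6, the methionine synthase, was lower by 0.60, and MET3 and MET17 differed by -0.24 and 0.06. Of 24 iron genes 1 was called, SIT1, a transporter of iron siderophores, at 1.21 (0.95 without the third, adjusted p 0.091), against 1.56% of all genes, and FET3, the iron oxidase, differed by 0.52 (adjusted p 0.74). ATO3, an ammonium export protein, was called at 1.09 (0.56 without the third). Purine genes moved with 1 array: ADE17 had 2.83, 2.95 and 2.85 with the tRNA and 3.22, 3.60 and 6.11 with the empty vector (adjusted p 0.062), and the purine list median was -0.33 with all arrays and 0.10 without the third.

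The response within H9 was set beside those of the other strains, which share slides but no array with it. Of the 92 genes called higher in H9, 90 were higher on average in the ancestor, 46 in B3 and 17 in D11. Of the 22 called lower, 22 were lower on average in the ancestor, 15 in B3 and 12 in D11. The median response of all genes was -0.058 in the ancestor, -0.026 in B3 and -0.0041 in D11. In the ancestor 29 of the 92 and 14 of the 22 were called in the same direction, which is 31.5% and 63.6% of the H9 genes, and 23.4% of 124 and 12.5% of 112 genes of the ancestor, where 3.99% of all genes were called. Spearman's correlation of the responses across the 5912 genes, which are not independent, was 0.64 with the ancestor, 0.10 with B3 and -0.25 with D11. Without the third H9 empty vector array it was 0.47, 0.15 and -0.07. The large subunit assembly list had medians of 0.72 in the ancestor, -0.06 in B3 and -0.47 in D11, and the glycogen list -1.29, 0.13 and 0.38. The second D11 tRNA array correlated at 0.967 and 0.965 with the other D11 tRNA arrays, against 0.993 between those. MRD1 had 0.91, 1.85 and 0.91 in D11 with the tRNA and 1.82, 1.99 and 1.78 with the empty vector. The D11 response of this gene thus differed between its tRNA arrays.

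The test of a difference between the responses of H9 and of D11 called 746 genes at the adjusted p (12.6%), 382 with the higher response in H9 (6.46%) and 364 with the lower one (6.16%). It called 584 without the third H9 empty vector array, 208 or 223 without the first or the third D11 tRNA array, 203 without slide 3 and 55 with the H9 and D11 arrays alone. Among the 746 were 26 of 50 large subunit assembly genes and 19 of 40 processome genes, all higher in H9, and 24 of 40 respiratory genes, all lower in H9. Replicate arrays of D11 were themselves less alike, with correlations down to 0.924. Against B3, 8 genes were called (0.135%), none of them in the ribosome assembly lists, and 8 without the third H9 empty vector array. Without the second B3 empty vector array none was called. The response in H9 minus that in B3 was -1.67, -1.34, -1.25, -1.73 and -0.81 for PHO5, FAA2, GPP2, YGP1 and HEM4 (0.0846% of all genes), and 2.31, 2.29 and 1.40 for HSP30, YFR056C and HXT2 (0.0507%). These are all 8, and FAA2, GPP2, YGP1, HEM4 and YFR056C were named after their values had been seen.

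Against the ancestor, 49 genes differed in their response at the adjusted p (0.829%), 12 with the higher response in H9 (0.203%) and 37 with the lower one (0.626%). Without the third H9 empty vector array there were 343 (5.8%), which included all 49, with 211 higher (3.57%) and 132 lower (2.23%). Without either ancestor empty vector array, of which there were 2, there were 7 and 8. Of the 37, 19 lay on chromosome XII, which holds 8.78% of the genes tested. That chromosome averaged 0.40, 0.34 and 0.35 above the ancestor with the empty vector on the 3 ancestor tRNA arrays, against -0.05, -0.04 and -0.06 on the H9 tRNA arrays and -0.11, -0.09 and -0.01 on the H9 empty vector arrays. The part of this chromosome-wide level in the 19 differences was not tested.

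**Figure D4:**
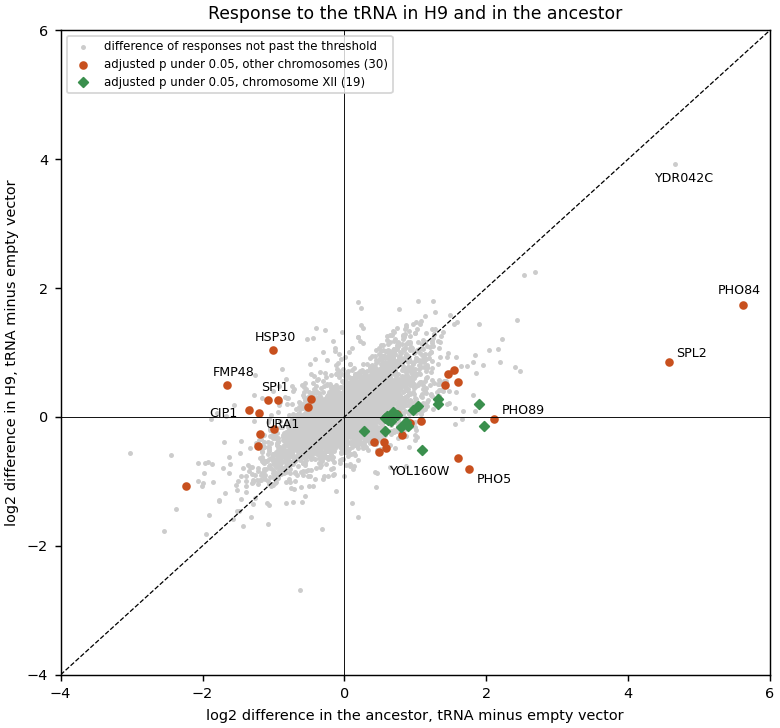
Log2 difference between tRNA and empty vector in H9 (y axis) against the same difference in the ancestor (x axis) for each gene, with the line of equal responses dashed. Coloured points are the 49 genes whose responses differed at an adjusted p under 0.05, with the 19 on chromosome XII as diamonds; phosphate genes lie far to the right of the line, and HSP30 and FMP48 to its left.

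The phosphate genes differed most. Yeast short of phosphate induces a high-affinity transporter, an acid phosphatase and SPL2, which holds back the low-affinity uptake. PHO84, the high-affinity transporter, had -3.00, -2.91 and -3.17 in H9 with the tRNA and -5.22, -3.23 and -5.84 in H9 with the empty vector. In the ancestor it had 2.64, 2.82 and 3.28 with the tRNA and -2.59 and -2.83 with the empty vector. Its response was therefore 1.74 in H9 and 5.62 in the ancestor (difference -3.88, SE 0.76, adjusted p 0.022, limma). Only 1 of the H9 empty vector arrays was well above background, so the size of the H9 response and of the difference is uncertain. In H9 the second empty vector array almost reached the tRNA arrays, and without the third array the response of 1.20 had an adjusted p of 0.14.

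SPL2 responded by 0.85 in H9 and 4.57 in the ancestor (difference -3.72, adjusted p 0.000146, limma). It had -4.70, -4.59 and -5.05 in H9 with the tRNA and -5.58, -5.53 and -5.79 with the empty vector, of which 1 array was well above background. PHO5, the main secreted acid phosphatase, went in opposite directions. It had -2.08, -2.06 and -1.84 in H9 with the tRNA and -1.44, -0.83 and -1.27 with the empty vector (-0.81, adjusted p 0.015), while its response was 1.76 in the ancestor, 0.74 in D11 and 0.86 in B3. The difference of the responses passed the adjusted p against each of the 3 strains, at -2.57, -1.55 and -1.67. PHO89, a sodium-phosphate transporter, responded by -0.03 in H9, where 2 of 3 tRNA arrays and 1 of 3 empty vector arrays were well above background, and 2.11 in the ancestor. Of the 16 phosphate genes 5 differed in response from the ancestor, all lower in H9, against 0.626% of all genes. The list median was -0.12 in H9 and 0.37 in the ancestor. YOL160W was not well above background on any H9 array, and no response is given for it there.

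**Figure D5:**
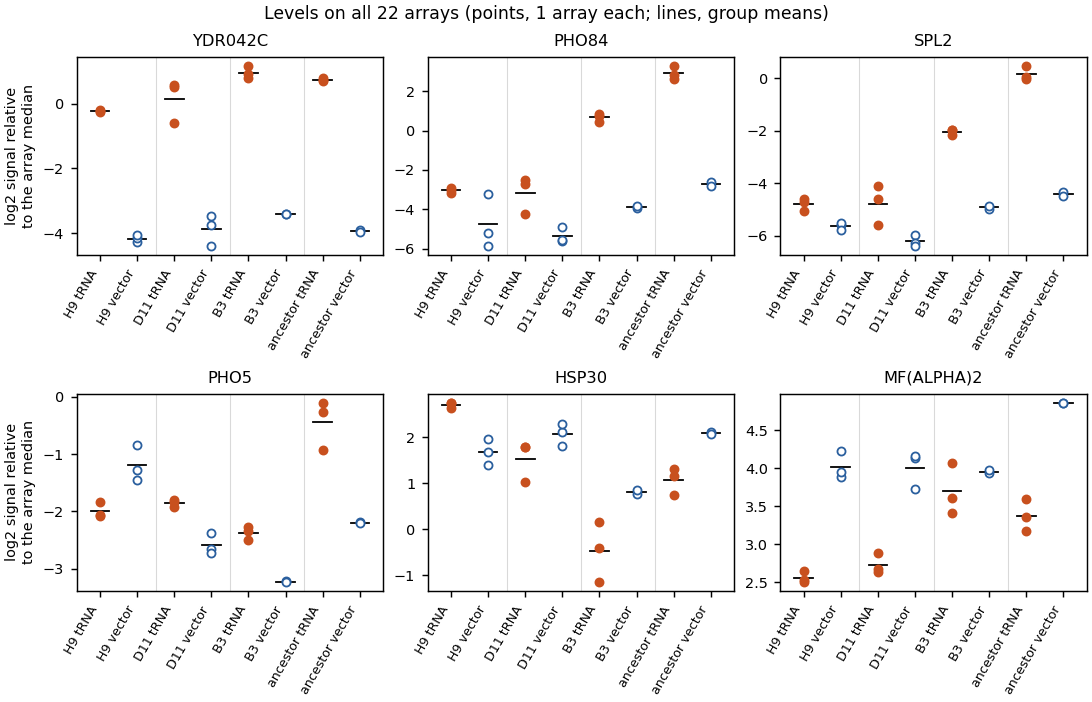
Log2 levels (y axis, relative to the array median) of 6 genes on all 22 arrays, by strain and plasmid, with filled points for the tRNA, open points for the empty vector and lines for group means. YDR042C is high with the tRNA in every strain, PHO84 and SPL2 rise least in H9 and D11, PHO5 is lower with the tRNA in H9 alone of the 4 strains, and HSP30 is higher with the tRNA in H9 alone.

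On the other side, HSP30 responded by 1.03 in H9, against -1.01 in the ancestor, -0.53 in D11 and -1.28 in B3. The difference passed the adjusted p against each of the 3 (2.04, 1.57 and 2.31). FMP48, a predicted mitochondrial kinase, had -1.62, -1.73 and -1.59 in H9 with the tRNA and -2.20, -2.00 and -2.23 with the empty vector. It responded by 0.50 in H9 and -1.65 in the ancestor (difference 2.15, adjusted p 0.0078, limma). CIP1, an inhibitor of cyclin-dependent kinase, SPI1, a wall protein of the general stress response, and URA1, the dihydroorotate dehydrogenase, responded by 0.10, 0.26 and 0.06 in H9 and by -1.35, -1.07 and -1.21 in the ancestor. None of the last 4 passed the adjusted p within H9 itself.

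A small group of genes responded in all 4 strains. At the adjusted p, 15 genes differed in the same direction in H9, D11, B3 and the ancestor, 12 higher and 3 lower with the tRNA, and 11 of the 15 also passed in H9 without the third array. Only 1 of 3 H9 empty vector arrays was well above background for PHO84, which did not pass without the third array (adjusted p 0.14, limma). With the size for PHO84 thus uncertain in H9, YDR042C, NCA3 and PHO84 were at least 2-fold higher in each strain. The others that were higher in H9 were YGR035C by 1.04, CTO1 by 0.94, REC104, a meiotic recombination gene, by 0.92, CAR1 by 0.90, SPL2 by 0.85, POL4, a DNA polymerase of end joining, by 0.81, PUT1, a proline oxidase, by 0.69, PDR5, a multidrug transporter, by 0.66, and USE1 by 0.64. KDX1, YNL058C and RIB4, the lumazine synthase of riboflavin synthesis, were lower by 1.07, 0.88 and 0.56. CTO1 had -1.14, -1.37 and -1.31 with the tRNA and -2.38, -2.41 and -1.83 with the empty vector, and POL4, listed next to it on chromosome III, had -0.82, -1.12 and -1.09 with the tRNA and -2.00, -2.23 and -1.21 with the empty vector. This group was chosen after its values had been seen.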

How the data were processed

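Total RNA of 22 samples was labelled with Cy3 and hybridised to 1-colour Agilent yeast arrays. Per the file headers and labels, the authors deposited spot intensities from Agilent Feature Extraction 10.7.3.1, in which background and spatial trend are subtracted. A table of log2 values deposited beside them was found to hold the logarithm of the same background-subtracted spots, shifted by an array constant, with spots lacking positive signal set to 0.

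Groups were taken from the labels. Of 13048 spots, 12512 were not controls. The log2 processed signal was centred on each array's median, and spots of a probe and probes of a gene were averaged, after the median centring of the methods. Dim probes were dropped unless some group had them well above background on all its arrays, and 5912 of 6225 genes remained. limma 3.58.1 (R 4.3.3) fitted 1 coefficient per group over all 22 arrays, with 14 residual degrees of freedom. Adjusted p-values were computed over all genes tested. Calls needed a Benjamini-Hochberg adjusted p under 0.05 and, except for differences between responses, at least 2-fold. The fit was also run on simulated data, and the outcome is not given here. Within-slide differences used arrays of the same replicate number, which share a slide.

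Named genes were the 12 largest called changes in each direction, called list members, fixed list examples, the 5 largest differences from the ancestor in each direction, strain markers, and genes called with and without the third empty vector array; others are marked. The lineage, the 36 lists and the rules were chosen with earlier results of these data known. Alternatives covered scaling, background, filters, model and left-out arrays. The normexp alternative used the median spot signal, as mean signals were not used here. Gene names came from a RefSeq R64 table, which matched 5589 tested genes. Sequences were not analysed here. Some genes that the rule names are not reported here.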

Additional observations from a re-analysis of the deposited data

Results flagged for a closer look

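The responses to the tRNA differed between H9 and the other strains by a test of the difference itself, in 49 genes against the ancestor, 746 against D11 and 8 against B3 (adjusted p under 0.05, limma). Of the single genes, PHO84, SPL2, PHO5, YOL160W and PHO89 had the lower response in H9 than in the ancestor, with differences of -3.88, -3.72, -2.57, -2.24 and -2.15 (log2). YOL160W was not well above background on any H9 array, and PHO84, SPL2 and PHO89 on only 1 of 3 H9 empty vector arrays, so the sizes of these 4 differences are uncertain. FMP48, HSP30, CIP1, SPI1 and URA1 had the higher response, with differences of 2.15, 2.04, 1.45, 1.33 and 1.27. Against B3, HSP30, YFR056C and HXT2 had the higher response in H9, with differences of 2.31, 2.29 and 1.40, and YGP1, PHO5, FAA2, GPP2 and HEM4 the lower one, with -1.73, -1.67, -1.34, -1.25 and -0.81.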

How the results depend on the processing

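The number of genes called within H9 (114 as reported) was 69 with normexp background correction, 14 with the H9 arrays alone, 31 with the methods' t-test at its own threshold and 2 after Benjamini-Hochberg, 622 with no minimum change and 187 with a 2-fold change and no p. It ran from 40 to 229 with single H9 arrays left out, lowest without the first tRNA array and highest without the first empty vector array. Deviations of same-numbered arrays correlated at 0.015, -0.048 and -0.071, and those of different numbers between -0.155 and 0.161. Same-numbered arrays share a slide, and these correlations cannot show whether the samples pair. With the replicate block (slide) the number called within H9 was 116, and the counts of differences from the ancestor, D11 and B3 given next were 41, 682 and 6. It was 69 with the replicate block and without the third empty vector array. No gene called as reported reversed its direction under any alternative. These genes were chosen by a 2-fold difference and their groups did not overlap, so little could reverse them and nothing is read from this. The count against the ancestor (49) was 79 on the 75th percentile, 27 with normexp, 30 with only the groups compared, 322 with array weights, 181 without slide 3 and 227 with the replicate block without the third H9 empty vector array. It ran from 7 to 343 with single arrays left out. The count against D11 (746) was 393 with normexp, 55 with only the groups compared, 1304 with array weights, 203 without slide 3 and 402 with the replicate block without that array. It ran from 208 to 1038 with single arrays left out. The count against B3 (8) was 17 on the 75th percentile, 13 with quantile normalization, 4 with normexp, 4 with the deposited series values, 13 with only the groups compared, 251 with array weights, 4 without slide 3 and 2 with the replicate block without that array. It ran from 0 to 36 with single arrays left out. Leaving out arrays of the other strains was chosen after seeing the data. Differences of chromosome segments stayed within 1 SD, except for the segment of chromosome VII on the 75th percentile (0.0066, against 0.035). The causes were not tested. The 3 arrays per group and dim probes limit what could be called.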
